A study of Mus musculus with 3 samples.

Results

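RXRA peaks whose summit lay within 1 kb of either end of a long non-coding RNA (lncRNA) gene, and away from protein-coding genes, were taken from 3 CUT&RUN libraries of mouse blood stem and progenitor cells. A summit was kept where it was neither inside a protein-coding gene nor within 1 kb of the end of one, with gene ends from the RefSeq table of mm10 (GRCm38.p6). The rule kept 125 of 4047 peaks in the haematopoietic stem cell (HSC) library (3.09%), 886 of 29848 in multipotent progenitor (MPP) replicate 1, called MPP1 below (2.97%), and 594 of 19570 in MPP replicate 2, called MPP2 (3.04%). Positions chose the peaks and their strength did not. The libraries were compared gene by gene, and a gene with at least 1 such peak in a library is called marked there. Of 12727 lncRNA genes, 9738 had some sequence near an end that was open to the rule, and 1044 of these were marked in at least 1 library.

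CUT&RUN uses an antibody to bring a nuclease to a chromatin protein, so that DNA freed around it can be sequenced. HSC were Lin- cKit+ Sca1+ CD48- CD150+ cells and MPP were Lin- cKit+ Sca1+ CD150- cells, with 10000 HSC in their library and 50000 MPP in each of theirs. All cells came from bone marrow of C57BL/6 mice of about 10 months, pooled from 3 or 4 mice. The genotype label is VavCre+; WT, while the growth protocol names Rxrab fl/fl mice and also calls them WT, so the sources differ on whether a Cre was present. The cells of all 3 libraries had been treated with the RXR agonist bexarotene, labelled as 1 mM for 1 h, and no control-antibody library was used here. With 1 HSC library, no difference between HSC and MPP has a replicate check and no p-value is given. Nothing in the labels says whether the MPP libraries came from separate pools. The peak names of HSC and MPP1 carry a tag that those of MPP2 lack, and the tag is not explained.

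RXRA is a nuclear receptor that pairs with other nuclear receptors, such as the retinoic acid, liver X and peroxisome proliferator receptors. Such pairs are known to bind repeats of the hexamer AGGTCA or close relatives of it. lncRNA genes give transcripts that encode no protein. Some of those transcripts act in the nucleus, some carry small nucleolar RNAs (snoRNAs) or microRNAs in their introns, and many have no known role. Most of the genes below carry only a catalogue symbol, such as Gm or Rik, and no role is given for those.

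Fragment background differed between the libraries, and what part depth played in the calls was not tested. The fragment background recovered from the authors' fold and p-values was 0.604 in HSC, 2.87 in MPP1 and 1.08 in MPP2. Relative to HSC that is 4.75 times in MPP1 and 1.79 times in MPP2. Read totals are not given, so these ratios stand in for depth. The lowest fragment pileup among all called peaks was 5 in HSC, 10 in MPP1 and 6 in MPP2. Intervals below are exact 95% intervals, binomial for shares and Poisson for counts and pileups, and they cover counting error only. Where a count was 0, the share said to be allowed is instead 3 counts over the number looked at.

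6 RefSeq promoter windows are printed first because their genes recur below and because each holds a summit. They are windows of mm10 (GRCm38.p6) from 250 bases before the annotated start to 50 after it, 5′ to 3′ on the gene's strand. Capitals mark every match, on either strand, to the motifs searched, which are spelt out with the motif results. The windows are 3300005D01Rik on chr17:5798407-5798706 (plus strand), Mir22hg on chr11:75461289-75461588 (plus), Snhg15 on chr11:6528711-6529010 (minus), Snhg20 on chr11:117076533-117076832 (plus), Snhg12 on chr4:132308428-132308727 (plus) and Morrbid on chr2:128429302-128429601 (minus).
3300005D01Rik: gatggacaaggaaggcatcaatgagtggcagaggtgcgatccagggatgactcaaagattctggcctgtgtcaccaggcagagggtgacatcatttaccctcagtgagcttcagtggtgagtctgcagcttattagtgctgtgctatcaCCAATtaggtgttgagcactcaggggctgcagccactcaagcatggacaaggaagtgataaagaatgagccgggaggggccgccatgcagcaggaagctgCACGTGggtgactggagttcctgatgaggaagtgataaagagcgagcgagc
Mir22hg: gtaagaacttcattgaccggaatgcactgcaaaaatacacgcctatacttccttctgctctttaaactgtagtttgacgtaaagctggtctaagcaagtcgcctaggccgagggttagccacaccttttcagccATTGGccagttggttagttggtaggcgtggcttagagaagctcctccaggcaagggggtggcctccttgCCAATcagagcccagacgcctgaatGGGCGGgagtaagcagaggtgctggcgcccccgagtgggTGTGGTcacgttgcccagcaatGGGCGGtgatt
Snhg15: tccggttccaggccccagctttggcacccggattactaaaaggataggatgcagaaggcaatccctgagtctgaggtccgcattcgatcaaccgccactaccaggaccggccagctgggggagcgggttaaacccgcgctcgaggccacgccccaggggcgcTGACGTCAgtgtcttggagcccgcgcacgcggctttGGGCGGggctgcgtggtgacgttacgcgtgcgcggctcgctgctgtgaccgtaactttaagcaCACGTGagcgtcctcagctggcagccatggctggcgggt
Snhg20: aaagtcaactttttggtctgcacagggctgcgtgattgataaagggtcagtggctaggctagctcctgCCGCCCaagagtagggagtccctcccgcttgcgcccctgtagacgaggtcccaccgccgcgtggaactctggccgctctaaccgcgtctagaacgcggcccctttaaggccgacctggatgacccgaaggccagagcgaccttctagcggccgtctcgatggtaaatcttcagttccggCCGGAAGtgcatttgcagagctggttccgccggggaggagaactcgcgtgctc
Snhg12: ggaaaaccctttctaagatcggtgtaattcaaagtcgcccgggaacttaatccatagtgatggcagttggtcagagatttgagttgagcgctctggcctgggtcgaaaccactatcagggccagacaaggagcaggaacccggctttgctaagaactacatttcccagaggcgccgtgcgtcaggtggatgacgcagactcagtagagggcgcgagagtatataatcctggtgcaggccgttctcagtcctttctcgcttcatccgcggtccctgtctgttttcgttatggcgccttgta
Morrbid: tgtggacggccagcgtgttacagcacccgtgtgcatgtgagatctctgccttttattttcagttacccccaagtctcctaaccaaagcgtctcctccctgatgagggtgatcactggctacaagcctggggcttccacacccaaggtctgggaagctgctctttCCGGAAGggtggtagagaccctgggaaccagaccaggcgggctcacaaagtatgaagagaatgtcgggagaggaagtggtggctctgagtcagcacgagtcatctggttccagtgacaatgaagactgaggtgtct

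3300005D01Rik was marked in all 3 libraries, and its window holds CACGTG across the annotated start, 60 bp from the HSC summit and 64 and 115 bp from the summits of MPP1 and MPP2. The Mir22hg window has a pair of GGGCGG matches, a pair of CCAAT boxes and a TGTGGT, with the nearest of them 108 bp from the HSC summit. In Snhg15 the CACGTG lay 25 bp from the MPP1 summit and 9 bp from the MPP2 summit, and TGACGTCA lay further upstream at 73 and 107 bp. The CCGGAAG of Snhg20 lay 68 and 36 bp from the summits of MPP1 and MPP2, and that of Morrbid 134 and 22 bp. The Snhg12 window held none of the motifs searched. None of the 6 windows held AGGTCA on either strand.

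lncRNA genes were marked far less often than protein-coding genes in every library. HSC marked 128 of the 9738 open lncRNA genes (1.31%, interval 1.10 to 1.56), MPP1 marked 856 (8.79%, 8.24 to 9.37) and MPP2 marked 594 (6.10%, 5.63 to 6.59). The same 1 kb rule at gene ends marked 7.99% of 21896 protein-coding genes in HSC, 40.1% in MPP1 and 35.1% in MPP2. The intervals of lncRNA and protein-coding genes did not overlap in any library. Peaks shared with protein-coding genes are not in the lncRNA shares, as 246 of 371 HSC peaks near a lncRNA end, 1332 of 2218 in MPP1 and 1050 of 1644 in MPP2 were barred by a protein-coding gene.

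**Figure D1:**
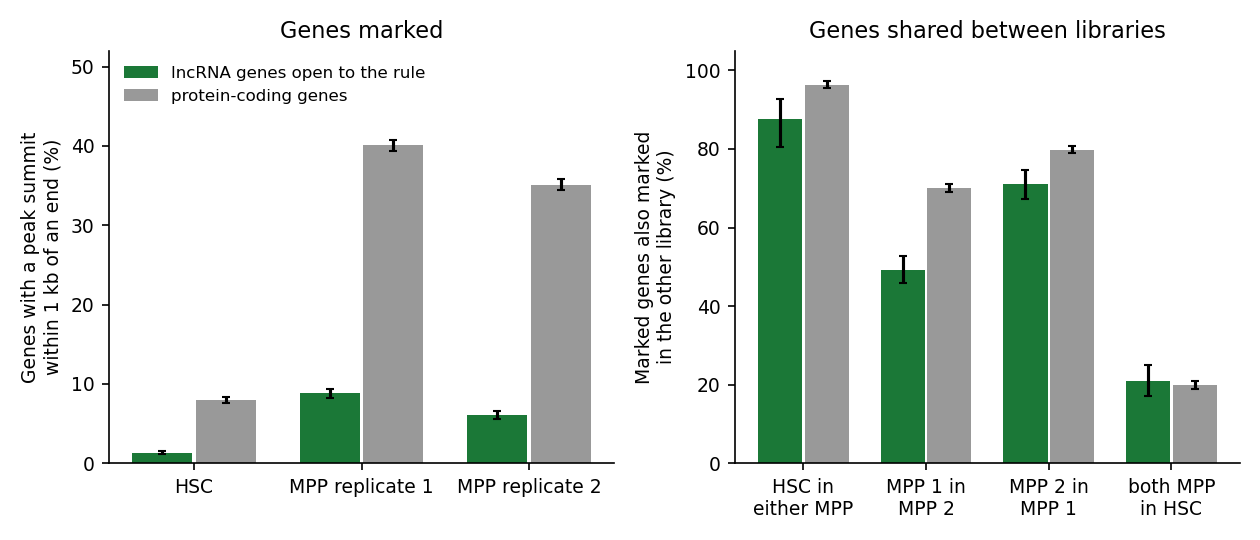
Left, share of genes (percent) with a peak summit within 1 kb of an end in each library, for lncRNA genes open to the rule (green) and protein-coding genes (grey). Right, share of the genes marked in the first library that were also marked in the second, with bars of exact 95% binomial intervals, where lncRNA genes lie below protein-coding genes except for genes of both MPP libraries looked up in HSC (20.9% against 20.0%).

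Within the sequence that the rule could reach, peaks were nevertheless denser at lncRNA ends than elsewhere. The density within 1 kb of a lncRNA end was 3.87 summits per Mb in HSC (3.22 to 4.61), 27.4 in MPP1 (25.6 to 29.3) and 18.4 in MPP2 (16.9 to 19.9). Elsewhere outside protein-coding genes it was 0.743, 5.64 and 3.28 per Mb in the same libraries. The interior of lncRNA genes, over 1 kb from their ends, lay between, with 1.24 in HSC, 9.42 in MPP1 and 5.86 in MPP2. At protein-coding gene ends the densities were 18.5, 109 and 89.3 per Mb.

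Peaks were denser at the start of the lncRNA gene than at its other end. Where RefSeq gives the start, summits near a start and no other end numbered 5.80 per Mb in HSC (4.44 to 7.43), against 2.01 near another end and no start (1.3 to 2.97). In MPP1 the densities were 41.4 at starts and 15.1 at other ends, and in MPP2 they were 28.4 and 9.67. The other ends were still above the density elsewhere outside protein-coding genes in every library, with intervals that did not overlap. Of the HSC summits paired with a start, 39 of 73 lay within 250 bp of it, against 4 of 26 at other ends. The counts within 250 bp of a start were 268 of 500 in MPP1 and 195 of 356 in MPP2, against 37 of 199 and 29 of 129 at other ends. Evenly spread summits would put about the same share within 250 bp of both ends, and only the starts showed a rise in the plot of summit positions.

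**Figure D2:**
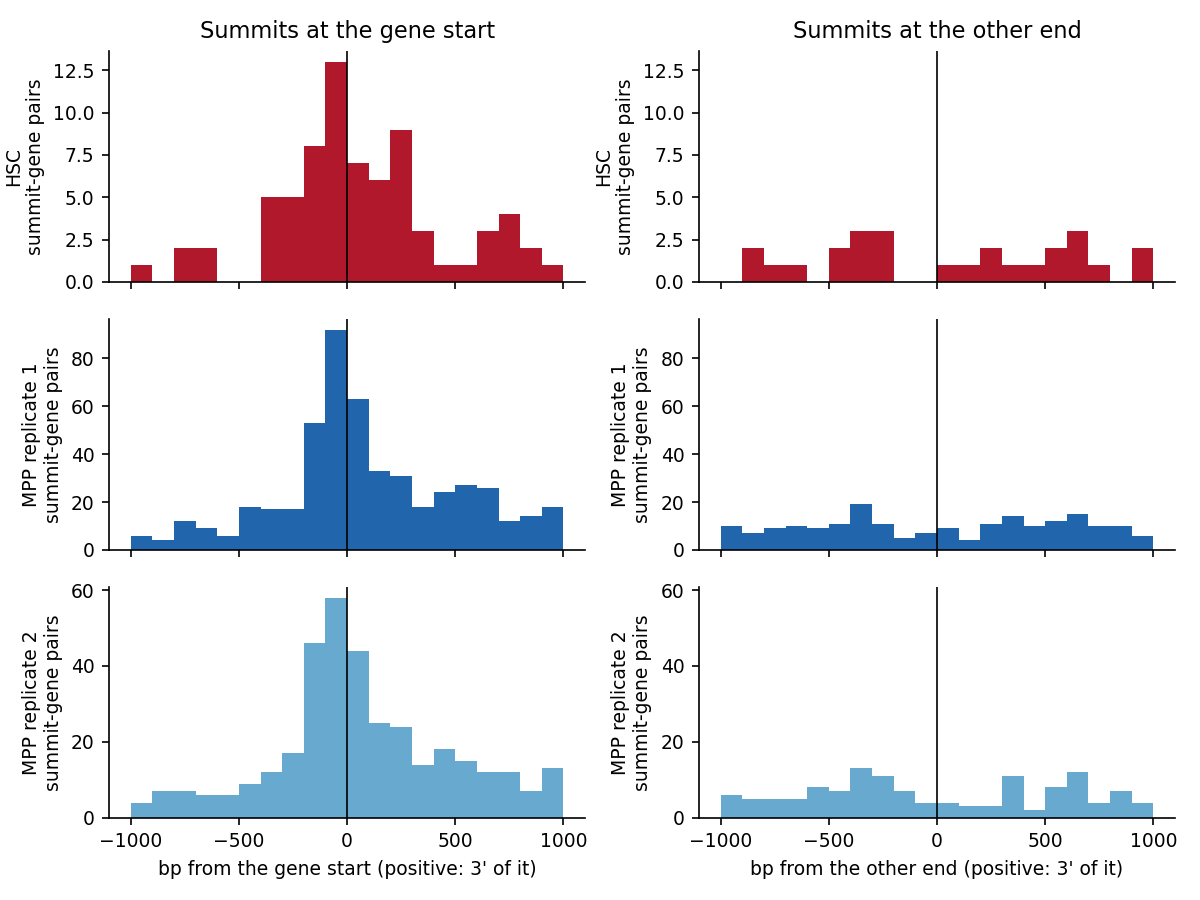
Number of summit and gene pairs (y axis) by distance in bp from the annotated gene start (left) or from the other end (right), in bins of 100 bp, for HSC, MPP1 and MPP2 from top to bottom. In each library the counts rise at the start (39 of 73 HSC pairs within 250 bp) and are flat at the other end (4 of 26 HSC pairs within 250 bp).

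In strength these peaks were ordinary members of their lists. The fold enrichment, which is the authors' own value for each peak and is used here within a list only, had a median of 5.48 in HSC against 5.50 for all other HSC peaks. The medians were 4.39 against 4.39 in MPP1 and 5.54 against 5.65 in MPP2. Few reached the 1% of highest fold: 0 of 125 in HSC, which allows a share of up to 2.40%, 5 of 886 in MPP1 and 3 of 594 in MPP2. The median distance from the summit to the lncRNA end was 271 bp in HSC, 316 bp in MPP1 and 278 bp in MPP2, while the nearest protein-coding end lay at a median of 25706, 19444 and 20600 bp.

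Some values sit close to the limits of the rule. In HSC the peaks farthest from a lncRNA end that were still kept lay 973 bp from Gm39440 (fold 4.37) and 993 bp from Gm14488 (fold 5.33). Just outside were peaks 1007 bp from Gm20670 (fold 4.28) and 1008 bp from Gm35131 (fold 7.11). At the limit to protein-coding genes, the peaks of Gm30613 (1074 bp away, fold 5.39) and Gm3924 (1423 bp, fold 5.75) were kept. Those of Gm13375 (811 bp, fold 6.66) and 1700122E12Rik (926 bp, fold 4.79) were barred.

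Of the 1044 marked genes, 88 were marked in all 3 libraries, 16 in HSC alone, 6 in HSC and MPP1, and 18 in HSC and MPP2. A further 334 were marked in both MPP libraries but not HSC, 428 in MPP1 alone and 154 in MPP2 alone. Most lncRNA genes marked in HSC were thus also marked in progenitors, with 112 of 128 in at least 1 MPP library (87.5%, 80.5 to 92.7) against 96.4% of HSC-marked protein-coding genes. In both MPP libraries the share was 68.8% (60.0 to 76.6) for lncRNA genes and 70.2% (67.9 to 72.3) for protein-coding genes. This share depends on the longer MPP lists. With each MPP list held to its 4047 peaks of highest fold it was 37.5% (29.1 to 46.5) for lncRNA genes and 45.1% (42.8 to 47.5) for protein-coding genes, and 80 genes in place of 16 were then marked in HSC alone. Without MPP2 the share was 73.4% and 34 genes were marked in HSC alone.

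**Figure D3:**
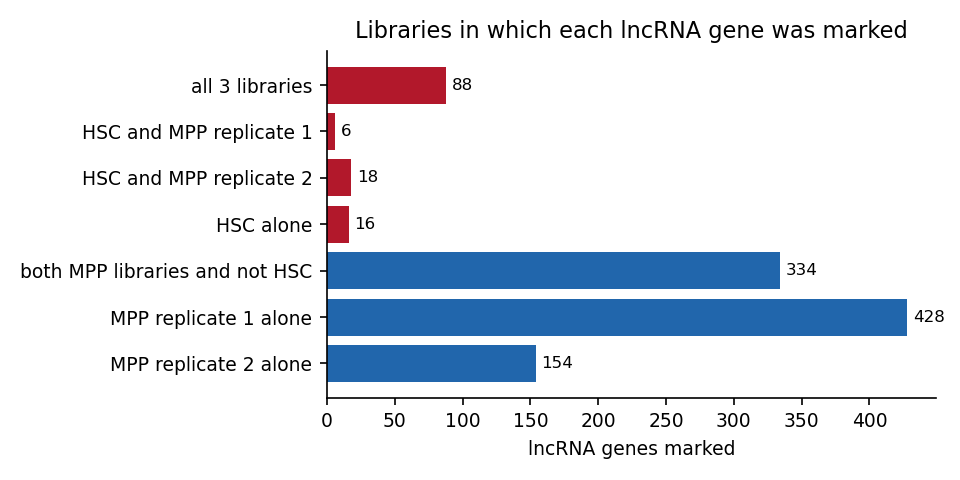
Number of lncRNA genes (x axis) by the libraries in which they were marked, with patterns that include HSC in red and those without HSC in blue. The longest bars are MPP1 alone (428 genes) and both MPP libraries and not HSC (334), and 88 genes were marked in all 3 libraries.

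Peak overlap gave a similar picture. Of the HSC peaks at lncRNA ends, 108 of 125 overlapped a peak of an MPP library (86.4%, 79.1 to 91.9), against 85.2% of all HSC peaks. The share was 94.1% at protein-coding ends and 79.4% for the other HSC peaks outside protein-coding genes. Of the 88 genes of all 3 libraries, 84 had an HSC peak that touched a peak in each MPP library, and at the remainder the peaks lay near the gene without touching in at least 1 MPP library. HSC peaks at lncRNA ends overlapped MPP2 at 79.2% and MPP1 at 72.0%, and both shares are of the same 125 peaks. Over all HSC peaks the shares were 76.1% in MPP2 (74.7 to 77.4) and 70.8% in MPP1 (69.4 to 72.2). At protein-coding ends they were 90.0% and 68.1%, and for the other peaks outside protein-coding genes 67.8% and 72.1%. The MPP1 names share the HSC tag, and whether the tag bears on these shares was not tested.

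Of the genes marked in one MPP library, a smaller share of lncRNA genes than of protein-coding genes was marked in the other. MPP2 marked 49.3% of the lncRNA genes of MPP1 (45.9 to 52.7) and 70.0% of its protein-coding genes (69.1 to 71.0). In the other direction, MPP1 marked 71.0% of the lncRNA genes of MPP2 and 79.8% of its protein-coding genes. The shares marked among all genes differ too, at 6.10% of open lncRNA genes and 35.1% of protein-coding genes in MPP2. In MPP1 they were 8.79% and 40.1%, so the shared parts do not rank how well the libraries agreed at each kind of gene. As peaks, 46.2% of the MPP1 peaks at lncRNA ends overlapped a MPP2 peak against 44.9% of all MPP1 peaks, and 69.2% of the MPP2 peaks overlapped a MPP1 peak against 68.1% of all. At protein-coding ends these shares were 61.5% for MPP1 and 74.5% for MPP2. For other peaks outside protein-coding genes they were 36.7% and 62.7%. Between the MPP libraries, stronger peaks were shared more often. In 3 equal bins of rising fold, 27.0%, 44.1% and 67.5% of the MPP1 peaks at lncRNA ends overlapped MPP2, and 54.5%, 74.2% and 78.8% of the MPP2 peaks overlapped MPP1. The HSC peaks showed no such rise, with 85.7%, 85.7% and 87.8% overlapping either MPP library.

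Of the 422 lncRNA genes marked in both MPP libraries, HSC marked 88 (20.9%, 17.1 to 25), close to the 20.0% of such protein-coding genes. The MPP libraries had higher backgrounds, so their pileups at the 334 that HSC did not mark were also set on the HSC scale. Scaled to the HSC background, the lower of the pair of MPP pileups had a median of 4.21 fragments over these genes, while the weakest HSC peak at a lncRNA end had 6. Only 41 of the 334 (12.3%) reached 6 when scaled, and 1 reached 9, the median pileup of the HSC peaks. Over the 88 genes of all 3 libraries the scaled median was 4.52 and 22 reached 6, although all 88 were called in HSC. Most genes called in HSC were thus below 6 on this scale as well, so the scaled value does not tell which genes HSC could call, and the part of depth in the 334 was not tested.

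Among genes of all 3 libraries the highest fold was at Gm51701 on chromosome 9, whose peak had a fold of 17 in HSC, 16.8 in MPP1 and 13.9 in MPP2. Its summits held 53 fragments in HSC (39.7 to 69.3), 109 in MPP1 and 63 in MPP2, and the HSC peak spans chr9:123924328-123924706. It lay 685 bp outside the gene, in sequence whose nearest protein-coding end, of the chemokine receptor gene Ccr1, was 37663 bp away and not marked. Its fold was above that of every other gene of the group in each library, while its pileups were below those of AY036118, described below, in each.

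Gm40237 on chromosome 4 had broad peaks and high MPP pileups, with 42 fragments in HSC, 163 in MPP1 and 107 in MPP2, and folds of 9.36, 9.75 and 10.4. The MPP1 peak covered chr4:118547148-118548811. Gm40034 on chromosome 2 had the most peaks, 3 in HSC, 3 in MPP1 and 2 in MPP2, and folds of 10.1, 8.22 and 9.56. Other genes with several peaks were Gm2885, Gm33258, Gm52771 and LOC115487176, each with 1 in HSC and 2 in each MPP library. Gm34907 ranked high in HSC, at the 96.7 percentile of fold with 28 fragments, against the 54.3 percentile with 17 fragments in MPP1 and the 29.1 percentile with 11 in MPP2. No further HSC library checks that difference.

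Some of the genes with the highest HSC fold lay in sequence whose nearest protein-coding gene has a known role, and distances are from the summit. Gm41853 had folds of 9.32 in HSC, 6.64 in MPP1 and 10.5 in MPP2, and lay 9405 bp from Scd2, a fatty acid desaturase gene. Gm52771, with folds of 8.16, 7.76 and 6.90 in the same order, lay 10038 bp from Pisd, which makes phosphatidylethanolamine, and Pisd was marked in all 3 libraries. Gm19385 (7.67 in HSC, 7.51 in MPP1, 7.70 in MPP2) lay 66541 bp from Ctnnb1, the β-catenin gene. Gm41307 had 9.19 in HSC, 4.13 in MPP1 and 9.26 in MPP2, and its nearest protein-coding end was that of Klf10, 84145 bp away. The distance names a neighbour and nothing more. Gm33171 had folds of 8.89 in HSC, 8.01 in MPP1 and 8.59 in MPP2, with summits 23 to 67 bp from its end. The other members of this group named by rank were Gm34484, 3300005D01Rik and Gm31065, with HSC folds of 7.99, 7.03 and 6.93.

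Neat1, whose RNA is the scaffold of the nuclear bodies called paraspeckles, was marked in all 3 libraries. Its fold was 5.91 in HSC, 3.59 in MPP1 and 5.85 in MPP2, from 17, 26 and 31 fragments, with the summits 164 to 224 bp beyond one of its ends. The HSC peak spans chr19:5845582-5845874. The fold ranked at the 64.2 percentile of the HSC list, the 16.5 percentile of MPP1 and the 56.0 percentile of MPP2. AY036118 was also marked in all 3 libraries, with the highest pileups in HSC (75 fragments) and MPP (176 and 184) but low folds of 3.07, 2.29 and 2.49. The RefSeq table places an 18S ribosomal RNA pseudogene, Rn18s-rs5, within 1 kb of that summit, and the gene was named after its values were seen.

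Genes marked in HSC alone had peaks of ordinary fold. The highest fold was 7.48 at Gm39123, from 11 fragments (5.49 to 19.7), and Gm34264 and Gm43522 followed with 6.58 and 10 fragments each. Gm46796 had 6.18, Gm30525 had 5.96, Gm3924 had 5.75, and 4930445N18Rik and Gm39341 had 5.61 each from 8 fragments. The HSC peak of Gm30525 overlapped an MPP1 peak whose own summit was not within the rule. The median fold of the 16 genes was 5.49 in HSC, against 5.78 for the genes of all 3 libraries, and no HSC replicate bears on any of them.

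Among genes that both MPP libraries marked and HSC did not, Gm26812 ranked first, with folds of 10.5 in MPP1 and 12.4 in MPP2 from 53 and 46 fragments. Scaled to the HSC background these correspond to 11.2 and 25.7 fragments, and Gm26812 was the 1 gene of the 334 for which both scaled values reached the HSC median of 9. Gm41603 had folds of 9.30 and 10.9, Gm40924 had 9.04 and 12, and Gm17767 had 7.41 and 10.6. C920006O11Rik had folds of 8.66 and 10.9 at a summit within 1 kb of Rn7sk, the gene of the 7SK small nuclear RNA that restrains transcription elongation. Gm36417 and Gm36462 overlap at their starts on opposite strands and share a peak on chr2:173061967-173062396 in MPP1 (fold 8.09), with fold 8.82 in MPP2. The peak lies inside Gm36417 and outside Gm36462, and the pair counts as 2 genes on 1 site. Gm38424 had 7.25 and 8.41. Trmt61b had 7.21 and 10.5 with summits 38 and 8 bp from an end, beside a cysteine tRNA gene, and its symbol is that of a mitochondrial tRNA methyltransferase gene although the table types it as lncRNA.

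The snoRNA host genes were among the more often marked of 7 lists. The introns of these genes carry snoRNAs, which guide the modification of ribosomal RNA. Of 16 open to the rule, HSC marked 1, MPP1 marked 8 and MPP2 marked 7, beside 1.31%, 8.79% and 6.10% of all open lncRNA genes. Snhg3, Snhg4, Snhg5, Snhg12, Snhg15 and Snhg20 were marked in both MPP libraries but not HSC. Snhg15 had folds of 8.53 in MPP1 and 9.68 in MPP2 from 32 and 23 fragments, with the summits 11 and 23 bp from the start. Snhg12 had 7.63 and 7.91 from 33 and 21 fragments, and Snhg4 had 8.67 and 6.06 from 35 and 13. Snhg20 had 5.88 and 7.13, Snhg3 had 3.95 and 4.70, and Snhg5 had 3.36 and 4.68.

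At the HSC background the Snhg15 pileups of MPP1 and MPP2 correspond to 6.73 and 12.9 fragments, those of Snhg12 to 6.94 and 11.7, those of Snhg4 to 7.37 and 7.27 and those of Snhg20 to 6.31 and 10.1. These 4 were among the 41 genes at or above 6 in both, and Snhg3 and Snhg5 were not. Snhg7 was marked in HSC alone, with a fold of 4.19 from 6 fragments, the lowest HSC pileup at a lncRNA end. Snhg11 and Snhg16 were marked in MPP1 alone (folds 3.70 and 5.97) and Snhg8 in MPP2 alone (6.81). Snhg1, Snhg6, Snhg10, Snhg17, Snhg18 and Zfas1 were open and not marked, and Gas5, Snhg9 and Snhg14 were barred at both ends by protein-coding genes.

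The list of lncRNAs with described roles in blood cells or growth control had 8 of 13 open genes marked in some library, 1 in HSC and 6 in each MPP library, beside 1.31%, 8.79% and 6.10% of all open lncRNA genes in HSC, MPP1 and MPP2. Mir22hg, the host of the microRNA miR-22, was the gene marked in HSC, with folds of 5.49 from 11 fragments in HSC and 6.00 from 19 in MPP2, and no peak in MPP1. Morrbid, known in mouse to limit the lifespan of short-lived myeloid cells through the pro-apoptotic gene Bcl2l11, had 5.31 in MPP1 and 4.36 in MPP2, from 24 and 12 fragments. Trp53cor1, a p53 target also called lincRNA-p21, had 6.19 and 5.70, but its strongest peaks lay at opposite ends of the gene, and the MPP2 peak overlapped a further MPP1 peak. Chaserr, which restrains its neighbour Chd2, had 4.65 and 6.37.

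Pvt1 is the neighbour of Myc, which the title of the series names as a pathway. It had folds of 4.39 in MPP1 and 3.84 in MPP2, from 16 and 7 fragments, and none in HSC. The summits lay 112 and 12 bp from a Pvt1 end. The MPP1 summit was 47513 bp from the nearest end of Myc, and Myc itself was not marked at its ends in any library. The MPP2 peak was among the weakest of its list, at the 4.35 percentile. Dleu2, host of the tumour-suppressing miR-15 and miR-16 pair, and Lncpint, a p53-induced transcript, were marked in MPP1 alone with folds of 2.87 and 2.60. Both peaks were weak, with Dleu2 at the 1.46 percentile of the MPP1 list. The value of 2.60 was the lowest among the genes of MPP1 alone. Lockd, downstream of the cell cycle inhibitor gene Cdkn1b, was marked in MPP2 alone with 4.65. Mir17hg, Mir155hg, Meg3, H19 and Hotairm1 were open and not marked.

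**Figure D4:**
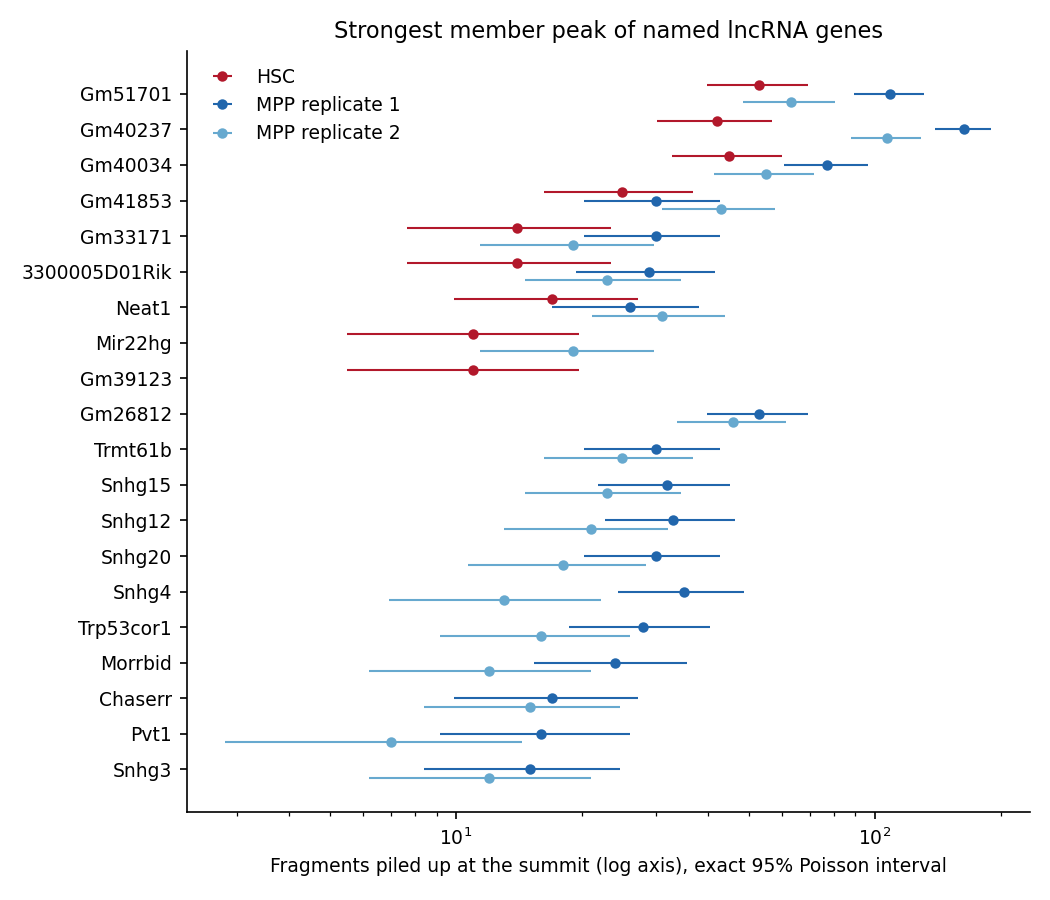
Fragments at the summit of the strongest peak (log axis) of 20 named lncRNA genes in HSC, MPP1 and MPP2, with exact 95% Poisson intervals, and no point where a gene was not marked. The top 7 genes have points in all 3 libraries, and the genes from Gm26812 down have points only in the MPP libraries. The fragment backgrounds of MPP1 and MPP2 were 4.75 and 1.79 times that of HSC.

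The other lists are short, and their counts stand beside the same 1.31%, 8.79% and 6.10%. Of 18 open microRNA hosts, 1 was marked in HSC, 3 in MPP1 and 1 in MPP2, namely Mir22hg, Mir9-3hg, Dleu2 and Ftx. Of 7 open nuclear or abundant lncRNAs, 1 was marked in HSC and 2 in each MPP library. They were Neat1, Oip5os1 (fold 6.28, MPP1) and the X-linked Firre (6.25, MPP2), while Malat1, Tug1, Miat and Norad were not marked. Ftx, a gene of the X inactivation centre, was marked in MPP1 with a fold of 2.84, and Xist and Jpx were not. The Ftx peak was at the 1.20 percentile of the MPP1 list, with 10 fragments, the lowest pileup called there. No imprinted lncRNA was marked of 6 open, which allows a share of up to 50.0%, and none of 9 at the Hox clusters, which allows up to 33.3%. No list was tested against the background.

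Some further genes were singled out after their values were seen because their transcripts have a described role. Lexis1, induced in mouse liver by the liver X receptor, a partner of RXR, was marked in both MPP libraries with folds of 4.39 and 6.14 from 16 and 14 fragments. The MPP1 peak spans chr4:53218029-53218349. The nearest protein-coding end, 58153 bp away, was that of Abca1, the cholesterol exporter gene, which was marked in all 3 libraries. Ptgs2os2, an inflammatory transcript also called lincRNA-Cox2, had folds of 5.43 and 12.4 in MPP1 and MPP2, with summits 46 and 11 bp from its end. Its neighbour Ptgs2, 56760 bp away, was marked in all 3 libraries. Crnde was marked in HSC (4.95) and MPP2 (3.69), and Mirt1 in all 3 libraries with 6.66 in HSC, 6.20 in MPP1 and 7.38 in MPP2. Scarletltr, an erythroid transcript, was marked in MPP1 alone (4.60).

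Some sites lie by other small RNA genes as well. Of the 1044 marked genes, 53 had another annotated feature within 1 kb of the summit, with tRNA genes at 23, snoRNA genes at 10, pseudogenes at 10, small nuclear RNA genes at 5 and microRNA genes at 2. Of the 23 with a tRNA gene, 3 were marked in all 3 libraries and 9 in both MPP libraries but not HSC. Among all 1044 marked genes these patterns held 88 and 334. The share of unmarked lncRNA genes with such a feature near an end is not given here, so the counts show no excess. At these sites the peak cannot be assigned to the lncRNA over its neighbour.

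Annotation and position of the gene went with the share marked. lncRNA genes with a curated RefSeq transcript were marked at 1.85% in HSC, 11.2% in MPP1 and 7.67% in MPP2, against 1.11%, 7.88% and 5.51% of genes with predicted transcripts only. By distance to the nearest protein-coding end, genes 0 to 2 kb away were marked at 0.998%, 5.67% and 4.04%, those 2 to 10 kb away at 1.82%, 13.6% and 8.98%, those 10 to 50 kb away at 1.86%, 13.1% and 8.69%, and those over 50 kb away at 0.830%, 5.01% and 3.93%. The shares were thus low in the nearest and the farthest range. For genes in the nearest range the rule bars part of the sequence near an end, so that share is not comparable with the others. On chromosome X the shares were 0.797% in HSC, 3.59% in MPP1 and 3.98% in MPP2, against 1.33%, 8.94% and 6.16% on autosomes. The intervals for X and autosomes overlapped in HSC (0.0966 to 2.85 on X) and in MPP2, and not in MPP1.

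The nearest protein-coding gene was marked somewhat more often when the lncRNA gene was. This held for 12.5% of the lncRNA genes marked in HSC (7.32 to 19.5) against 8.14% of those not marked, where the intervals overlap. The shares were 50.0% against 41.5% in MPP1 and 46.8% against 34.1% in MPP2, where they do not. Distance to protein-coding genes differs between these groups too, and its part was not tested.

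Promoter windows of lncRNA starts met by a peak held more CpG dinucleotides as a group than those not met, though the groups overlapped. Promoter windows of 300 bases were available for 5724 lncRNA starts open to the rule, and 345 of them overlapped a peak of the rule in at least 1 library. The median number of CpG dinucleotides was 13 in windows met by an HSC peak, 9 in those met in both MPP libraries and not HSC, 8 in those met in 1 MPP library alone, and 3 in those not met. At least 10 CpG were present in 53.3%, 48.8%, 39.7% and 6.84% of these groups. The share met by HSC peaks was 0.295% at 0 to 4 CpG, 0.679% at 5 to 9, 2.20% at 10 to 19 and 13.3% at 20 or more. MPP1 met 1.77%, 5.64%, 20.0% and 45.1% over the same ranges, and MPP2 met 1.5%, 4.01%, 12% and 42.5%.

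The gap between lncRNA and protein-coding genes differed with CpG content. Over all windows, any peak met 0.786% of lncRNA windows in HSC, 4.94% in MPP1 and 3.70% in MPP2, against 6.66%, 29.1% and 28.9% of protein-coding windows. The protein-coding windows are the 10582, of 21262 in the table, whose start is the outermost end of the gene, 1 per gene. At 20 or more CpG the shares were 13.3% (7.62 to 20.9) against 14.3% in HSC, 45.1% (35.8 to 54.8) against 56.3% in MPP1 and 42.5% (33.2 to 52.1) against 58.1% in MPP2. There the intervals overlapped in HSC and, barely, in MPP1 (54.5 to 58.0 for protein-coding windows), but not in MPP2 (56.3 to 59.8). At 10 to 19 CpG they were 2.20% against 10.7%, 20.3% against 47.1% and 12% against 46.4%, and at 5 to 9 CpG 0.679% against 1.46%, 5.64% against 15.6% and 4.01% against 12.8%. At 0 to 4 CpG few windows of either kind were met, at 0.295% against 0.231% in HSC, 1.77% against 2.36% in MPP1 and 1.5% against 1.97% in MPP2, with overlapping intervals in each library. The ratio of the shares was thus farthest from 1 in the middle ranges and closer to 1 at both extremes. lncRNA windows close to protein-coding genes are not among those compared.

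**Figure D5:**
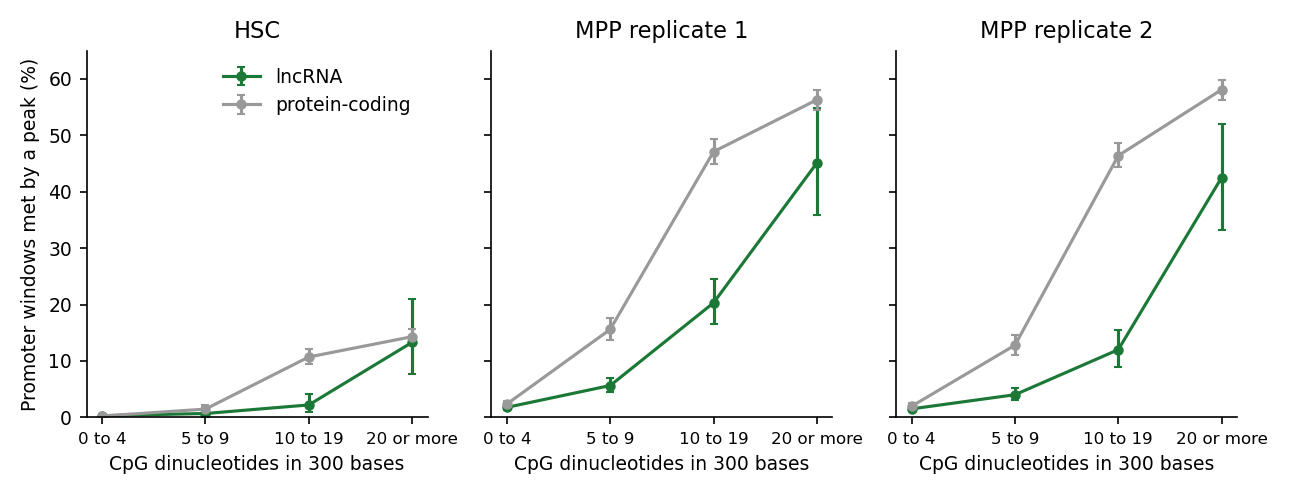
Share of promoter windows (percent) met by a peak, by the number of CpG dinucleotides in the 300 bases, for lncRNA starts open to the rule (green) and protein-coding starts (grey) in HSC, MPP1 and MPP2, with exact 95% binomial intervals. All curves rise with CpG number, and at 20 or more the lncRNA share is 13.3% in HSC, 45.1% in MPP1 and 42.5% in MPP2.

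The receptor's own hexamer was not more common in the windows that peaks met. AGGTCA was present in 15.7% of the 345 windows met (12 to 19.9), in 20.4% of those not met and in 16.3% of all 32851 RefSeq promoter windows. Within windows of 10 or more CpG it was 11.7% against 13.3%, and below 10 CpG 18.8% against 21.0%, with overlapping intervals. No window met held AGGTCA repeated in the same direction with 1 base between, a spacing bound by some RXR pairs. For this repeat 0 of 345 allows a share of up to 0.870%. Repeats with 2, 4 or 5 bases between were also searched and were found in none of the 345 windows either. The same repeat is rare everywhere, at 0.0396% of all windows. The windows cover 300 bases at annotated starts and not the summits themselves, which need the genome, so these counts do not bear on the other peaks, and only exact letters were counted.

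Some other motifs were more frequent in the windows met. CACGTG, an E-box of the kind bound by MYC, MAX and USF proteins, was present in 22.2% of windows met by HSC peaks (11.2 to 37.1), 15.1% of those met in any library (11.5 to 19.3) and 5.15% of those not met, against 7.15% of all promoter windows. Among windows with 10 or more CpG it was present in 35 of 154 met (22.7%, 16.4 to 30.2) against 7.88% of 368 not met (5.34 to 11.1). Below 10 CpG the shares were 8.90% (5.27 to 13.9) against 4.95% (4.37 to 5.59). The E-box intervals thus did not overlap within the CpG-rich windows, those with 10 or more CpG, and overlapped below 10. This split does not hold CpG content equal. Within the CpG-rich windows MPP1 met 20.0% at 10 to 19 CpG and 45.1% at 20 or more, and CACGTG itself holds a CpG. What part CpG content played in the motif shares here and below was not tested.

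GGGCGG, bound by SP proteins, was present in 34.8% of windows met and 7.73% of those not met, and in 61.0% against 33.7% within CpG-rich windows. CCGGAAG, an ETS factor site, was present in 9.57% against 2.57%, with overlapping intervals within CpG-rich windows (10.4% against 7.07%) and not below 10 CpG (8.90%, 5.27 to 13.9, against 2.24%, 1.84 to 2.68). TGACGTCA, the cyclic AMP response element, was present in 2.90% against 0.706%, in 4.55% against 3.53% within CpG-rich windows and in 1.57% against 0.499% below 10 CpG, with overlapping intervals in both ranges. CCACNAGG, part of the CTCF site, was present in 8.70% against 4.35%, in 7.14% against 5.98% within CpG-rich windows, where the intervals overlap, and in 9.95% against 4.23% below 10 CpG, where they do not. CGCATGCG, the NRF1 site, was present in 3 of 345 windows met (0.870%, 0.180 to 2.52) against 0.316% (0.184 to 0.506). CCAAT was present in 33.0% against 37.7%, and TGTGGT, the RUNX site, in 22.9% against 21.3%. The intervals of windows met and not met overlapped for the NRF1, CCAAT and RUNX motifs. AGATAA, which blood factors of the GATA family bind, was less frequent in windows met, at 9.57% against 16.3%. The NRF1, CCAAT, RUNX and GATA motifs were not split by CpG content, which differed between windows met and not met. Across the windows all motifs were searched on both strands, a pair of motifs could overlap, and a match describes letters and does not show binding. Windows of neighbouring starts can overlap, as at 9330159M07Rik and Gm26611, and each is then counted although they share sequence. The intervals treat such windows as separate.

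Across genes, fold in one library went with fold in another. Over the 88 genes of all 3 libraries Pearson's r of log2 fold was 0.45 between HSC and MPP1 (Spearman's rho 0.28), 0.44 between HSC and MPP2 (rho 0.29) and 0.64 between MPP1 and MPP2 (rho 0.54). Over the 422 genes of both MPP libraries it was 0.46 (rho 0.38). These are correlations across genes within the same libraries, and genes are not independent replicates. In the MPP libraries, median fold was higher at genes found more often. In MPP1 it was 5.10 at genes of all 3 libraries, 4.91 at genes of both MPP libraries and not HSC, and 4.19 at genes of MPP1 alone. In MPP2 the matching medians were 6.92, 5.71 and, for genes of MPP2 alone, 5.02. In HSC the median was 5.78 at genes of all 3 libraries, 4.91 at the 6 shared with MPP1 only, 5.44 at the 18 shared with MPP2 only and 5.49 at genes of HSC alone, so that order was not seen there.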

How the data were processed

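RXRA CUT&RUN peak lists of 1 HSC and 2 MPP libraries were used, each called on its own library. The submitters' processing notes list MACS2 2.1.4, Bowtie2 2.3.4.1, cutadapt 1.9.1, Trim Galore 0.4.2 and the mm10 build. Tool settings, and any control used for calling, are not given in the sources. Per the labels' protocols, antibody was diluted 1:50 in buffer with 0.025% digitonin, and nuclease was given at 700 ng/mL for 1 h with digestion for 30 min. The authors' deposited fold enrichment is a ratio at the summit, used only within a list. Deposited p-values and q-values, each as −log10, were kept as they stand, the weakest q being 0.0995. The deposited score, 10 times −log10 q, was not used. Read totals are not given, so pileup and background were solved from fold and p, and at a tolerance of 0.001 in −log10 p at least 99.98% of the pileups in each list were whole.

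Python 3.11.15, pandas 2.3.3 and scipy 1.17.1 were used. Summits were placed against a RefSeq table of GRCm38.p6, which has no strand, so gene starts came from RefSeq promoter windows. The assignment, overlap and pileup steps were tested on simulated peaks. Shares have exact binomial (Clopper-Pearson, 95%) intervals. No model was fitted and no p-value computed between cell types. The 7 gene lists, 14 motifs and the members were chosen with earlier results of these data known. Named genes were the 12 of highest HSC fold among genes of all 3 libraries, the 8 of highest HSC fold in HSC alone, the 10 of best worse rank among genes of both MPP libraries and not HSC, the 5 with most peaks, those nearest each 1 kb limit, and up to 6 marked genes per list. Alternatives were other windows, exclusions, thresholds, list lengths, overlaps and left-out libraries.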

Additional observations from a re-analysis of the deposited data

How the results depend on the processing

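Of 76 values recomputed under the alternatives, 44 stayed within 1.5 times the reported count or within the interval of the reported share, and 32 moved. The cause of the moves was not tested, except that stricter or shorter lists hold fewer peaks. A 5 kb window marked 321 lncRNA genes in HSC, 2044 in MPP1 and 1348 in MPP2, with 229 in all 3, 39 in HSC alone and 821 in both MPP libraries without HSC. At q of 1e-05 or below the same counts were 40, 493, 365, 28, 5 and 202, and 60.3% of MPP2 peaks overlapped MPP1. With lists of equal length, MPP1 marked 119 genes and MPP2 115, with 20 in all 3, 80 in HSC alone and 32 in both MPP libraries without HSC. The share of HSC genes also marked in MPP was then 37.5%, 36.8% of HSC peaks overlapped an MPP peak and 45.8% of MPP2 peaks overlapped MPP1. Named lncRNA genes only gave 9, 51, 41, 4, 1 and 27 genes. Counting peaks within 1 kb as overlapping gave 49.8% for MPP1 in MPP2 and 72.9% for MPP2 in MPP1. Leaving out MPP1 or MPP2, genes in HSC alone numbered 22 or 34, genes of the remaining MPP library without HSC 488 or 762, genes of HSC and the remaining library 106 or 94, and the share of HSC genes 82.8% or 73.4%. The 500 bp window, the 5 kb exclusion, any base of the peak, the lists without the 1% of highest fold and the overlap of 50% of the peak moved no value past these limits. Motifs around summits need the genome and could be run only in promoter windows. No paired analysis was possible because HSC has 1 library and no test was made. The HSC library had the lowest background, and a gene absent there may have a peak below its threshold, which was not tested.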
